A study of Mus musculus with 96 samples.

Results

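The regions described here are stretches of DNA inside gene introns that the authors listed as differing in methylation after irradiation, diet or their interaction. They were the rows of the 6 deposited bisulfite tables whose annotation began with the word for intron, and no measured value entered that choice. There were 1167 such rows among 35198 listed regions. They covered 1033 distinct intervals, since an interval can stand in more than 1 table.

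The mice were of the C57Bl/6 strain, with no genotype other than the strain given in the labels, and were irradiated or left as controls and fed a high fat diet (HFD) or chow. Reduced representation bisulfite sequencing (RRBS), which reads single cytosines near the cut sites of the enzyme MspI, was run on the stromal vascular fraction, which is what is left of fat tissue without its adipocytes, and on satellite cells, from which muscle fibres regenerate. The stromal vascular fraction was profiled in 7 irradiated HFD, 4 irradiated chow, 7 control HFD and 6 control chow samples, and the satellite cells in 6 samples of each of the same 4 groups. The radiation dose, the sex and age of the mice, the interval before collection and the isolation of the cells are absent from the labels. From its title, the study asked what irradiation adds to diet-induced insulin resistance and how it changes progenitor cells of muscle and fat.

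Each cell type had a radiation, a diet and an interaction table. A row gave a median p-value and the median methylation levels of a group 1 and a group 2. The difference given here is always group 1 minus group 2 in percentage points. Neither the labels nor the headers say which mice form either group. The tables held no value of a single sample, so no spread between animals and no depth can be given, and nothing here was tested anew. Group 1 was largely shared between the tables of a cell type. Where the same intronic interval stood in 2 tables of a cell type, its group 1 level was equal within 1e-06 percentage points in 123 of 130 cases and differed in the others, and between the cell types it was equal in 0 of 15. The 3 tables of a cell type are therefore not independent of each other, and the sources used here do not say whether group 2 of an interaction table is the level of any group of mice.

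Introns are the transcribed stretches that splicing removes. Most of their CpG sites are highly methylated in mammalian cells, while CpG islands, dense runs of CpG that often sit at promoters, stay largely free of methylation. Introns also hold enhancers and alternative promoters, where intermediate or cell-type-specific methylation is common. RRBS favours CpG-dense DNA, so the intronic sites it sees are not an even sample of introns.

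The authors' annotation placed no intronic region within 3 kb of a gene start. The nearest annotated start was at least 3004 bases away, with a median distance of 18425 bases over the distinct intervals. Measured against RefSeq, 12 of the 1033 intervals nevertheless overlapped a 300-base window around a RefSeq start, from 250 bases before it to 50 after it. These windows belonged to 8 genes. They are shown because a sequence was at hand for them, and 5 of them are printed since they differ in CpG density. The windows are those of Celf2 (chr2:6871986-6872285, minus strand), Fgf13 (chrX:59567299-59567598, minus strand) and Rap1gap (chr4:137707217-137707516, plus strand). The other 2 are that of LOC118027456 inside an intron of Etv6 (chr6:134243670-134243969, minus strand) and that of Gm31391 inside an intron of Tcf7l1 (chr6:72677292-72677591, plus strand). The regions lie at chr2:6872137-6872232, chrX:59567462-59567512, chr4:137707391-137707440, chr6:134243938-134243988 and chr6:72677390-72677462 in the same order. Sequences are from RefSeq (GRCm38.p6, the assembly known as mm10), 5′ to 3′ on the strand of the starting gene, and capitals mark the listed region where it falls in the window.
Celf2: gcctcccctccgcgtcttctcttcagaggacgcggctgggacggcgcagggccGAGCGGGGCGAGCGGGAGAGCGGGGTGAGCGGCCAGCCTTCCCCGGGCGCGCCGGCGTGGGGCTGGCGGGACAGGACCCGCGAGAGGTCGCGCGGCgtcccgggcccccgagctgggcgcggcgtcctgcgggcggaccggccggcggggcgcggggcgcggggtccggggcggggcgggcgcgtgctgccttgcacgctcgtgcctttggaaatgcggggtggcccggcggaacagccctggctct
Fgf13: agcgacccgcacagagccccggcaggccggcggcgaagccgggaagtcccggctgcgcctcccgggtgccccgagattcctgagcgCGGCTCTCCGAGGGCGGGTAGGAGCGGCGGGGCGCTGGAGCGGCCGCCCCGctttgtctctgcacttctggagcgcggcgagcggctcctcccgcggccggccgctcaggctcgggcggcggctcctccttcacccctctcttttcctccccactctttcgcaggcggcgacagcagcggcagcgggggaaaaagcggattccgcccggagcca
Rap1gap: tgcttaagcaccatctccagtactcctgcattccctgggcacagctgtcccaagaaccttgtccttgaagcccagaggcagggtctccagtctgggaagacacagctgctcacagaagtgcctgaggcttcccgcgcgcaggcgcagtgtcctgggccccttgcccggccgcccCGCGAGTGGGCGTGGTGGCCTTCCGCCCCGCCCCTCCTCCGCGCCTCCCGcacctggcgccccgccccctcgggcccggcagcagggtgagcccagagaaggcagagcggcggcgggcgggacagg
LOC118027456: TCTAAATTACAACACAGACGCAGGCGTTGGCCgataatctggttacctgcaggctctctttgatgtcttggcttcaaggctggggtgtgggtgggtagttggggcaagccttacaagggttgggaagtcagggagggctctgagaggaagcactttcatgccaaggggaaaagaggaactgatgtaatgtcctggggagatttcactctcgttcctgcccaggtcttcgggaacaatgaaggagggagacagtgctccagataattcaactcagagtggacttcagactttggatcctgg
Gm31391: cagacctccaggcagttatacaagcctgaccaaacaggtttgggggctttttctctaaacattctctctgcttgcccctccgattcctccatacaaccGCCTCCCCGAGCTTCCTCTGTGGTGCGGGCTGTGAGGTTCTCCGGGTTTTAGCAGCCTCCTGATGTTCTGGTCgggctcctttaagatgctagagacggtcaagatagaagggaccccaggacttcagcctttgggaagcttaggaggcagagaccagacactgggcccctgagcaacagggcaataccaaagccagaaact

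The first 3 windows were dense in CpG, and their listed levels lay at or near zero on one side. The window of Celf2, an RNA-binding regulator of splicing, held 48 CpG, and that of Fgf13, an intracellular relative of the fibroblast growth factors, held 40. Rap1gap, which switches off the small GTPase Rap1, had 22. The median over 32851 RefSeq windows was 7. In satellite cells the Celf2 region was at 33.0% in group 1, against 0.216% in group 2 of the diet table and 1.11% in group 2 of the radiation table. The same window held other regions in the stromal vascular fraction, with 0.449% in group 1 and 18.0% in group 2 of the diet table at chr2:6872005-6872061. In that diet table the Fgf13 region was at 0.246% in group 1 and 17.6% in group 2, and the Rap1gap region was at 0.101% in group 1 and 20.6% in group 2.

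The other 2 windows held no more CpG than the median window. The window inside Etv6, which encodes a transcriptional repressor of the ETS family, held 5 CpG, and its region was at 68.5% in group 1 and 97.7% in group 2. The one inside Tcf7l1, a Wnt pathway transcription factor, held 7 CpG. Its region was at 2.52% in group 1 and 24.6% in group 2 of the satellite cell radiation table. In the satellite cell interaction table its group 2 was at 0.0112%. The MspI site CCGG, searched on both strands because it reads the same on each, occurred 7 times in the Celf2 and Fgf13 windows and 2 times in the Rap1gap window. It occurred 1 time in the Tcf7l1 window, and the Etv6 window held 0 within its 300 bases. Over all RefSeq windows, 52.8% held at least 1 CCGG.

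Intronic regions made up 2.3% to 5.61% of each table. They were 138 of 5493 listed regions in the stromal vascular fraction radiation table, 449 of 7997 in its diet table and 56 of 1207 in its interaction table. In satellite cells they were 259 of 9827, 221 of 9617 and 44 of 1057 in the same order. Promoter regions made up most of the rest, with 31351 of the 35198 rows.

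Intronic regions, like distal intergenic and exon regions of the stromal vascular fraction, had other methylation levels than the tables at large, which are mostly promoter regions. The median group 1 level of intronic regions was 43.8%, against 0.273% over all listed regions, in the stromal vascular fraction radiation table, and 46% against 0.408% in its diet table. Distal intergenic regions were at 35.6% and 37.8% and exon regions at 77.8% and 54.6% in the same 2 tables. In satellite cells it was 28.3% against 0.385% in the radiation table and 17.9% against 0.365% in the diet table. There distal intergenic regions were at 1.36% and 0.998%, and exon regions at 41.7% and 68.4%.

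Intronic regions were shorter than the promoter-rich tables at large, and some of their listed differences were small. Their median width was 21.5 bases in the stromal vascular fraction radiation table, 23 in its diet table and 3 in its interaction table, against 42, 36 and 20 over all listed regions. In satellite cells it was 15, 15 and 9 bases in the same order of tables, against 29, 30 and 24. Other regions outside promoters were much like them, with 21 bases (distal intergenic) and 22 (exon) in the stromal vascular fraction radiation table and 22 and 25 in its diet table. Single bases made up 28.1% of the intronic regions of the stromal vascular fraction diet table, against 18.3% of all, 29.9% of distal intergenic and 26.7% of exon regions. A difference under 1 percentage point was listed for 29 intronic regions (6.46%) of that table, against 26.9% of all, and for 44 (19.9%) of the satellite cell diet table, against 38.9% of all. Every intronic region had a median p of at most 0.00765 in the authors' tables, small differences included.

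To describe this, regions were put in 3 classes of level, set after the data were seen. In the first class both groups had at least 1% methylation. In the stromal vascular fraction it held 83 intronic regions (60.1%) of the radiation table, against 8.72% of all listed regions, and 371 (82.6%) of the diet table, against 17.5%. The interaction table had 51 (91.1%), against 43.7%. In satellite cells it held 142 intronic regions (54.8%), against 9.39% of all, in the radiation table and 100 (45.2%), against 7.98%, in the diet table. The satellite cell interaction table had 33 (75%), against 37.4%. Regions in distal intergenic DNA and exons were also mostly in this class in the stromal vascular fraction diet table, with 64.0% and 90.9%.

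**Figure D1:**
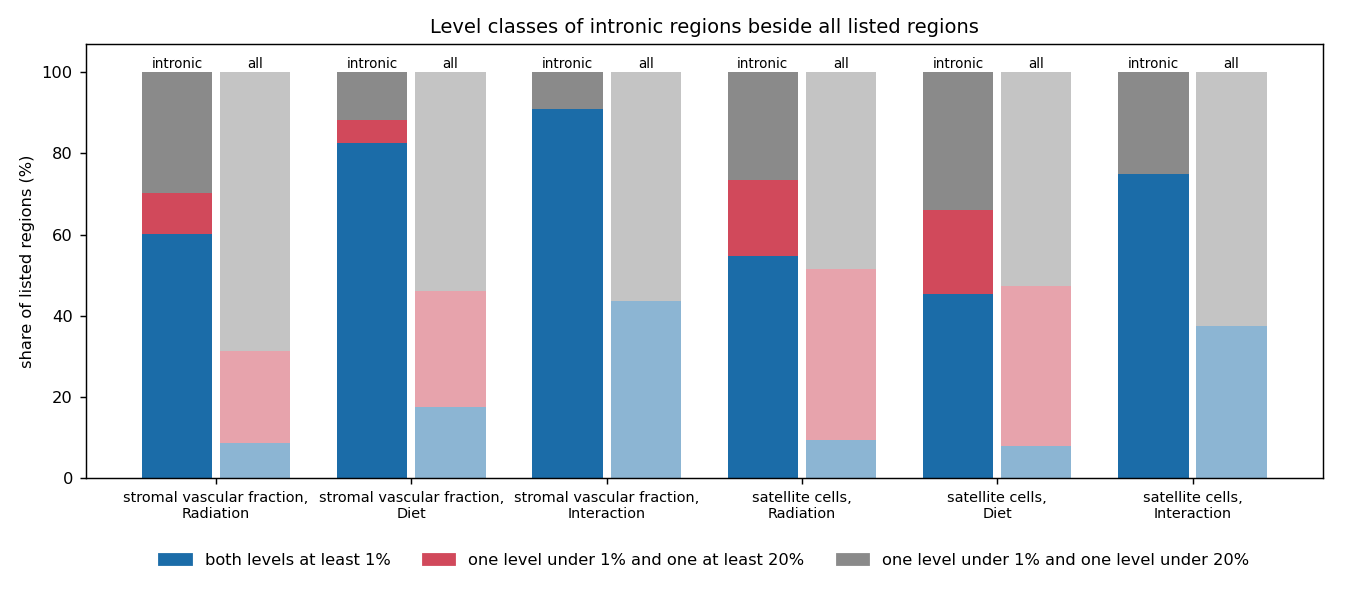
Share of listed regions in each class of methylation level, for intronic regions (left bar of each pair, full colour) beside all listed regions (right bar, pale) in each of the 6 tables. Regions with both levels at least 1% fill between 45.2% and 91.1% of the intronic bars and between 7.98% and 43.7% of the others.

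The second class had 1 level under 1% and the other at 20% or more, and in the stromal vascular fraction its higher level varied little for most regions. In the stromal vascular fraction it held 14 intronic regions of the radiation table, all with group 1 higher, at a median of 37.9% with quartiles of 37.2% and 38.4% and a range of 21.7% to 43.6%. In the diet table group 1 was the higher one in 19 regions, at a median of 38.2%, and group 2 in 6, at a median of 20.7% and a range of 20.4% to 21.3%. In satellite cells it held 48 regions of the radiation table and 46 of the diet table. There the higher level had medians of 33.7% (group 1) and 30.7% (group 2) in the radiation table and of 33.0% (group 1) and 31.4% (group 2) in the diet table. They were more spread there, with quartiles of 27.1% and 33.8% for group 2 of the radiation table. The higher level over all listed regions had medians of 38.2% for group 1 in both stromal vascular fraction tables and 33.6% in each group of the satellite cell radiation table. In the interaction tables no region of any annotation was in this class. The third class, with 1 level under 1% and the other under 20%, held the remaining regions. What sets these levels was not tested, and the differences of this class are given as listed.

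**Figure D2:**
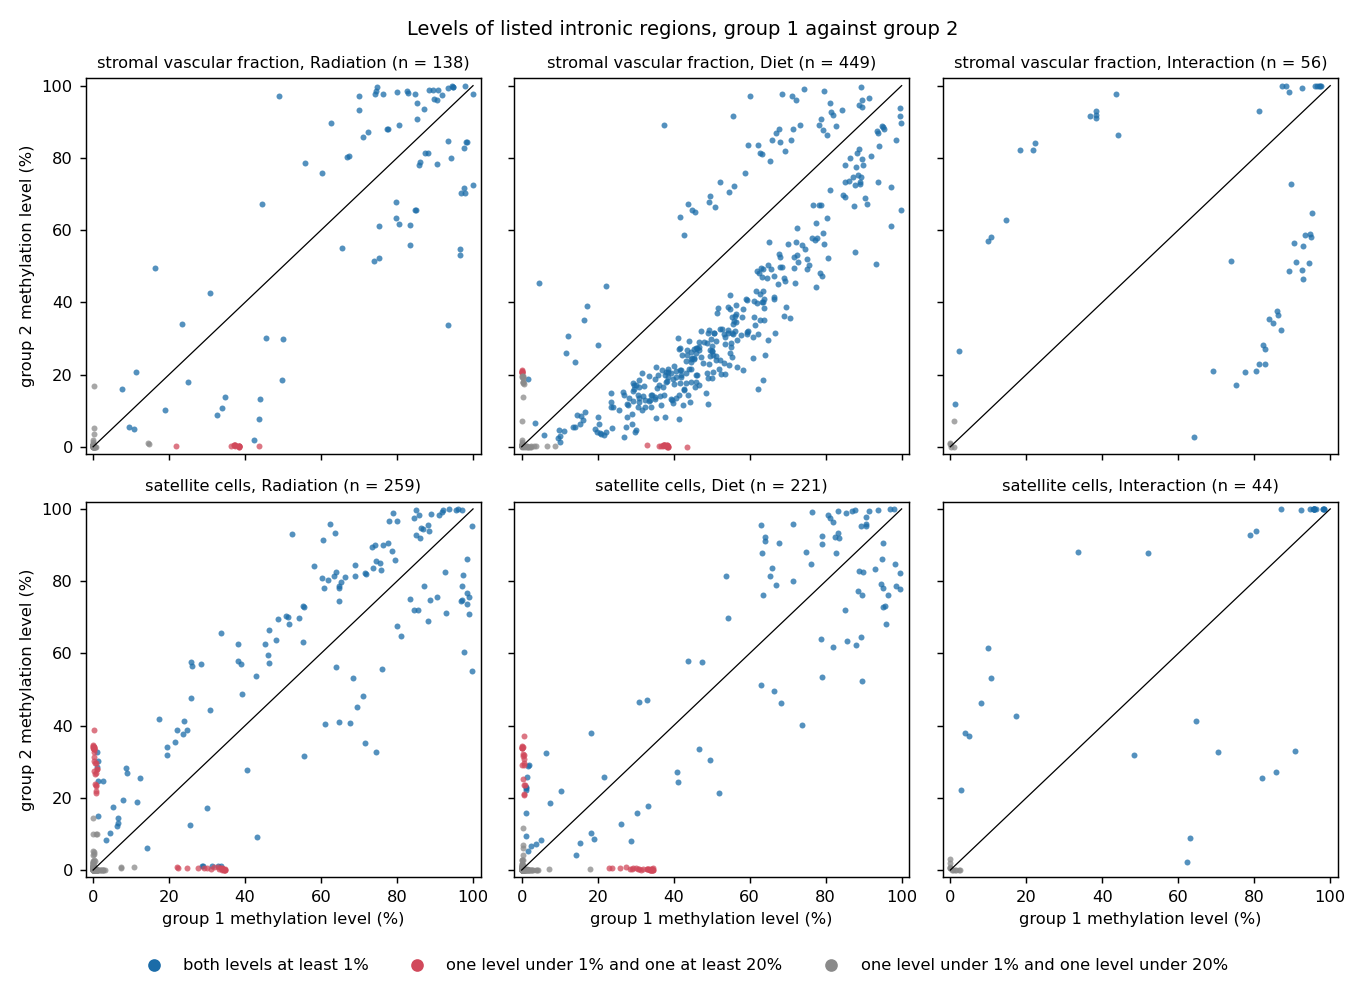
Methylation level in group 1 (horizontal axis, %) against group 2 (vertical axis, %) for every intronic region of the 6 tables, coloured by class of level, with the line of equal levels. Red points lie along the axes, with medians of 38.2% (group 1) and 20.7% (group 2) in the diet table of the stromal vascular fraction and of 33.7% (group 1) and 30.7% (group 2) in the radiation table of satellite cells, and the first of these tables shows a band of blue points below the line.

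Neighbouring regions alternated over a few bases, mostly within the 2 classes with 1 level under 1%. Each region was paired only with the next one in coordinate order. Within a table, 47 such pairs of intronic regions lay at most 100 bases apart. In 47 of the 47 pairs the members lay on opposite sides, 1 higher in group 1 and 1 higher in group 2. The same held for 7592 of 7592 such pairs over all listed regions. Regions on the same side did stand that close where another region lay between them, as in Mideas below. No source used here says how regions were built or whether same-side neighbours were joined. The count may thus have been fixed in advance and says nothing particular about introns. In 37 of the intronic pairs neither member had both levels at least 1%, and in 10 pairs 1 member had. In 40 of the 47 intronic pairs the levels of at least 1 group differed by 20 percentage points or more between the neighbours. Mideas, which encodes a scaffold of a histone deacetylase complex, is an example in the stromal vascular fraction. Its 5 regions within 62 bases (chr12:84175741-84175802) had diet table group 1 levels of 37.1%, 0.0062%, 37.3%, 0.00622% and 37.4% from the lowest coordinate up, while group 2 stayed between 0.427% and 0.519%. In satellite cells an unnamed host on chromosome 11, near Sptbn1, had 6 alternating regions within 100 bases (chr11:30267669-30267768), with differences between -0.169 and 33.95 percentage points in the diet table.

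**Figure D3:**
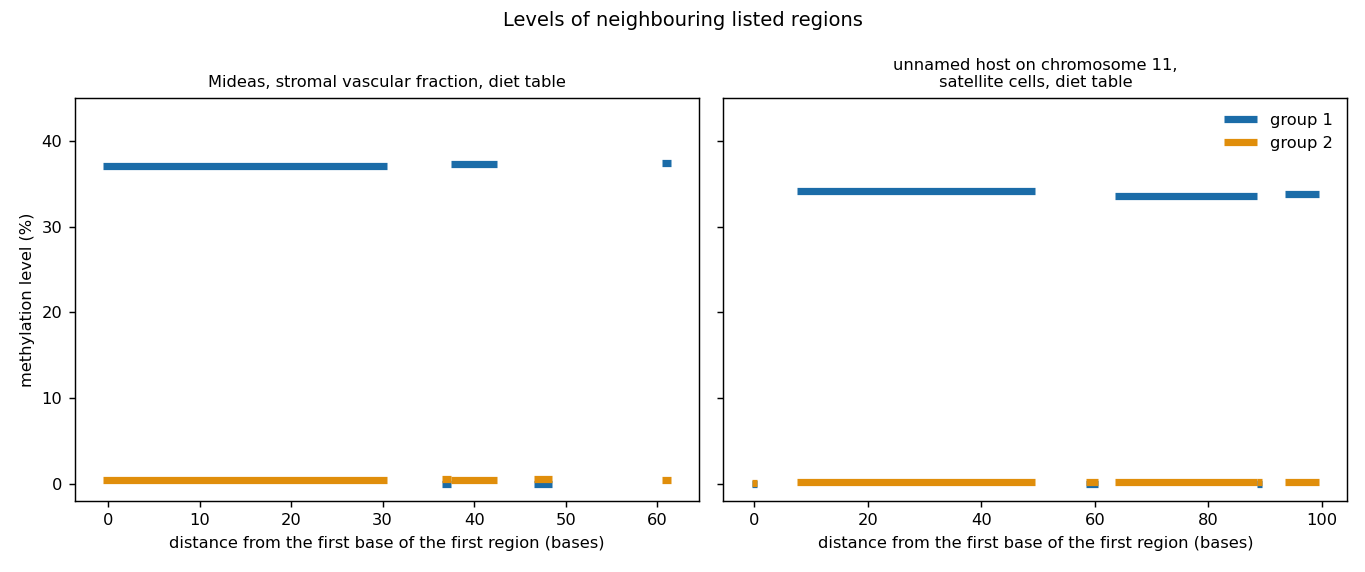
Levels of neighbouring intronic regions (vertical axis, %) along the DNA (horizontal axis, bases from the first region), as bars as wide as each region, with group 1 in blue and group 2 in orange. In both loci group 1 switches between near 0 and 33.6% to 37.4% from 1 region to the next, while group 2 stays below 1%.

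The main intronic feature of the diet comparison in the stromal vascular fraction was a higher level in group 1 where both groups were methylated. Group 1 was higher in 347 of 449 intronic regions (77.3%), while it was higher in 43.2% of all listed regions. Among the 371 intronic regions with both levels at least 1% it was higher in 314 (84.6%), against 79.7% of all listed regions of that class. The intronic share is thus near that of the class as a whole, as it was for distal intergenic regions (82.4%) and exons (75.3%). The median difference in that class was 18.7 percentage points over intronic regions, with quartiles of 11.5 and 23.3, and 15.6 over all listed regions. A difference of at least 10 percentage points was listed for 365 intronic regions (81.3%) and for 60.4% of all regions.

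The largest differences on the group 1 side of this diet table were at single genes with unlike roles. Abhd2, a serine hydrolase gene, was at 62.2% in group 1 and 15.9% in group 2 at chr7:79285523-79285531 in intron 1. Prkce, the gene of protein kinase C epsilon, was at 63.5% in group 1 and 18.4% in group 2 at chr17:86257123, also in intron 1. A region at chr5:137510236-137510286 was at 43.6% in group 1 and 0.0411% in group 2, with a median p of 9.93e-14 in the authors' table. The authors assigned that region to an intron of Epo, the gene of erythropoietin, but it lies outside the RefSeq span of Epo and its nearest start is that of Pop7. Ccdc6, a coiled-coil gene, was at 93.4% in group 1 and 50.5% in group 2 at chr10:70138684.

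On the group 2 side, Tbx18, a T-box transcription factor of mesenchymal and perivascular cells, had the lowest difference. Its base at chr9:87727473, 3787 bases from the nearest start of Tbx18, was at 37.4% in group 1 and 89.2% in group 2. Snx18, a sorting nexin, was at 4.44% in group 1 and 45.3% in group 2 at chr13:113600643. The centrosomal gene Cep128 was at 60.2% in group 1 and 97.0% in group 2 at chr12:91227876-91227954. Fnip2, a partner of folliculin in nutrient sensing, was at 55.6% in group 1 and 91.6% in group 2 at chr3:79549844-79549870.

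Several hosts held 3 or more regions of the diet table. Their sides are to be read beside all intronic regions of that table, where group 1 was higher in 77.3%, or in 84.6% with both levels at least 1%. In Nfix, a nuclear factor I gene with a role in muscle development, group 1 was higher in 4 of 4 regions, by 11.1 to 19.03 percentage points. Cit, Galnt2 and Wwox each had 3 regions with group 1 higher, by 12.4 to 28.0 percentage points across the 3 genes. Casz1, Dst, Nxph1 and Trerf1 also had group 1 higher in 3 of 3. Bcor, Mideas, Slc39a11, Bahcc1, Camta1, Ephb2, Hivep3 and Zfp385a had regions on both sides. Ebf3, a relative of the adipogenic factors Ebf1 and Ebf2, was split along its length. Group 2 was higher by 21.8 to 22.6 percentage points at the 3 regions nearest to its start (chr7:137309711-137310331), and group 1 was higher by 30.5 and 22.0 at 2 regions further in, at chr7:137267828 and chr7:137298177-137298196.

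The radiation comparison in the stromal vascular fraction had group 1 higher in 68 of 138 intronic regions (49.3%) and 60.7% of all listed regions. Among the 74 intronic regions that differed by at least 10 percentage points it was higher in 48 (64.9%), so the side depends on that choice. The exact binomial interval for counting error, 52.9% to 75.6%, takes regions as independent, though several lay close together in 1 gene. Of the 1684 listed regions with such a difference, at least 1167 had group 1 higher, so this lean was not particular to introns. With both levels at least 1%, group 1 was higher in 42 of 83 intronic regions (50.6%), against 47.2% of all regions of that class. The median difference over these intronic regions was 2.34 percentage points. Differences of at least 10 percentage points were listed for 74 intronic regions (53.6%) and for 30.7% of all regions.

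The highest intronic differences of that radiation table were at 4 loci on separate chromosomes. Zc3h12b, an RNase gene of the zinc finger family on the X chromosome, was at 93.4% in group 1 and 33.7% in group 2 at chrX:95853064. Lpcat3, which remodels membrane phospholipids, was at 96.6% in group 1 and 52.98% in group 2 at chr6:124694143. The region assigned to Epo, shared with the diet table, was at 43.6% in group 1 and 0.131% in group 2. A base assigned to Ttll5, a tubulin-modifying enzyme gene, was at 96.5% in group 1 and 54.9% in group 2 at chr12:86058853, outside the RefSeq span of Ttll5.

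The lowest ones had at least 89.5% methylation in group 2 in 3 of 4 cases. Cdc42bpa, a kinase that acts under Cdc42, was at 49.0% in group 1 and 97.0% in group 2 at chr1:180003338. Unc45b, a myosin chaperone of striated muscle, was at 16.3% in group 1 and 49.5% in group 2 at chr11:82930157-82930191, with a median p of 5.15e-11 in the authors' table. Hdac7, a class IIa histone deacetylase, was at 70.01% in group 1 and 97.2% in group 2 at chr15:97800981. Atp6v0e, a subunit of the proton pump of lysosomes, was at 62.5% in group 1 and 89.5% in group 2 at chr17:26690394-26690429.

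In satellite cells the radiation comparison leaned to group 2, with group 1 higher in 96 of 259 intronic regions (37.1%), against 48.1% of all listed regions. With both levels at least 1% it was higher in 44 of 142 (31.0%), against 34.2% of all regions of that class, so the intronic share again lay near that of the class. The median difference in that class was -9.93 percentage points over intronic regions and -11.2 over all. A difference of at least 10 percentage points was listed for 158 intronic regions (61.0%) and for 51.9% of all.

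Camta1, a calmodulin-binding transcription activator, had the highest of these differences, at 99.6% in group 1 and 55.1% in group 2 (chr4:151138024). Cux2, a homeobox gene, was at 71.6% in group 1 and 35.3% in group 2 at chr5:121903544-121903556. A second Cux2 region, at chr5:121928747-121928789, went the other way, with 33.7% in group 1 and 65.7% in group 2. The remaining 2 of the highest 4 lay in hosts without a RefSeq name, at chr12:20845382-20845391 with 74.5% in group 1 and 32.8% in group 2, and at chr2:169998103-169998106 with 97.6% in group 1 and 60.4% in group 2.

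On the other side, Cdh4, the gene of R-cadherin, was at 52.4% in group 1 and 93.0% in group 2 at chr2:179636190. The remaining 3 of the lowest 4 were of the class with 1 level under 1%. Macrod1, which removes ADP-ribose from proteins, was at 0.248% in group 1 and 38.8% in group 2 at chr19:7166107-7166156. Bcorl1, a corepressor on the X chromosome, was at 0.0391% in group 1 and 34.6% in group 2 at chrX:48345500-48345541. Pitpnm2, a lipid transfer gene, was at 0.0371% in group 1 and 34.4% in group 2 at chr5:124221647.

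The diet comparison in satellite cells was close to even, with group 1 higher in 111 of 221 intronic regions (50.2%), against 51.9% of all listed regions. With both levels at least 1% it was higher in 42 of 100 (42.0%), against 46% of all regions of that class. Differences of at least 10 percentage points were listed for 122 intronic regions (55.2%) and for 47.9% of all.

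Of the 8 most extreme regions of that table, 7 had 1 level under 1%. The exception was Anp32e, a chaperone that removes the histone variant H2A.Z, with 89.5% in group 1 and 52.5% in group 2 at chr3:95935632. Irs1, an adaptor of the insulin receptor, was at 34.6% in group 1 and 0.0389% in group 2 at chr1:82283445-82283455. An unnamed host at chr16:29814077-29814108 had 34.7% in group 1 and 0.027% in group 2, and Bcor, a Polycomb corepressor, had 34.4% in group 1 and 0.0716% in group 2 at chrX:12088658. On the group 2 side, the RasGAP gene Dab2ip was at 0.285% in group 1 and 34.1% in group 2 at chr2:35661339-35661367. Zcchc2, a zinc finger gene, was at 0.0909% in group 1 and 34.1% in group 2 at chr1:105993997-105994034. Asic4, of the acid-sensing ion channel family, was at 0.0769% in group 1 and 34.4% in group 2 at chr1:75467766, and an unnamed host at chr4:108780256-108780283 was at 0.729% in group 1 and 37.0% in group 2.

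The interaction table of the stromal vascular fraction had the widest median absolute difference of intronic regions among the 6 tables, at 43.0 percentage points, against 1.65 over all listed regions. The signed median was 0.60. Distal intergenic regions of that table were alike, with a median absolute difference of 43.8 percentage points, and exon regions had 30.8. A difference of at least 10 percentage points was listed for 44 of 56 (78.6%), against 41.2% of all. Group 1 was higher in 29 (51.8%), against 32.2% of all. With both levels at least 1% it was higher in 27 of 51 (52.9%), against 16.3% of all regions of that class. Promoter regions were 376 of the 528 regions of that class, and group 1 was higher in 2.39% of them. Other regions of that class outside promoters were split alike, with group 1 higher in 13 of 25 exon and 36 of 70 distal intergenic regions.

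Prdm16, which directs precursors towards brown fat, had the lowest difference, with 18.4% in group 1 and 82.3% in group 2 at chr4:154544059-154544065. Fcho1, an endocytosis gene, was at 22.2% in group 1 and 84.3% in group 2 at chr8:71709784-71709817, and Grik3, a kainate receptor gene, was at 21.7% in group 1 and 82.3% in group 2 at chr4:125557131-125557132. The highest were Kif11, a mitotic kinesin, with 64.1% in group 1 and 2.71% in group 2 at chr19:37381225, and Brinp3, a neural gene, with 82.8% in group 1 and 23.0% in group 2 at chr1:146822500-146822527. The syntaxin gene Stx2 followed with 80.3% in group 1 and 21.0% in group 2 at chr5:128996527-128996541.

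In the satellite cell interaction table the median absolute difference was 4.78 percentage points over 44 intronic regions, against 1.06 over all listed regions, and 16.7 over the 33 intronic ones with both levels at least 1%. Group 1 was higher in 14 (31.8%), against 44.8% of all, and in 8 of the 33 regions with both levels at least 1% (24.2%), against 9.37% of all regions of that class. Promoter regions were 285 of the 395 regions of that class, and group 1 was higher in 3.16% of them. In the same class it was higher in 20.5% of distal intergenic and 38.7% of exon regions. The median absolute differences over all distal intergenic and exon regions were 3.03 and 5.32 percentage points. A difference of at least 10 percentage points was listed for 20 intronic regions (45.5%), against 32.8% of all. Klhl3, an adaptor of a ubiquitin ligase, was at 62.3% in group 1 and 2.1% in group 2 at chr13:58031188. A second site in Prkce was at 85.8% in group 1 and 27.3% in group 2 at chr17:86540614. Fto is an RNA demethylase gene whose introns carry human obesity variants and contact the neighbouring gene Irx3. It was at 90.6% in group 1 and 32.8% in group 2 at chr8:91608088-91608150, in intron 8 of 8 and at 83.0% of the gene's length. The nearest annotated start was that of Irx3, 193504 bases away. The place of the region relative to those variants and contacts was not examined. On the other side stood Bcor, with 33.6% in group 1 and 88.1% in group 2 at chrX:12091275-12091302, and Ebf1, a factor of B cells and adipocytes, with 10.0% in group 1 and 61.6% in group 2 at chr11:44665355-44665363. Ankrd6, a Wnt pathway gene, was at 10.8% in group 1 and 53.1% in group 2 at chr4:32884682.

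Because the tables of a cell type largely share group 1, levels of the same interval can be set side by side but not read as repeated evidence. The region assigned to Epo was at 43.6% in group 1 of the stromal vascular fraction, against 0.131% in group 2 of the radiation table, 0.0411% in that of the diet table and 97.7% in that of the interaction table. Zcchc2 at chr1:105993908-105994038 was at 38.3% in group 1, against 0.138%, 0.148% and 93.1% in group 2 of the same 3 tables. In satellite cells Gipc1, a PDZ adaptor gene, was at 98.5% in group 1, against 73.5% for radiation, 78.6% for diet and 100.0% for the interaction. Klhl3 was at 62.3% in group 1, against 95.9% for radiation and 2.1% for the interaction. Gse1, a coiled-coil gene, was at 63.0% in group 1, against 95.6% for diet and 8.79% for the interaction. Trim17, a ubiquitin ligase gene, was at 0.00325% in group 1, against 0.162% for radiation, 0.145% for diet and 0.673% for the interaction in the stromal vascular fraction. In the interaction table its group 1 level was 0.00317%. Apart from Epo and Zcchc2, these intervals were chosen after their values were seen.

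**Figure D4:**
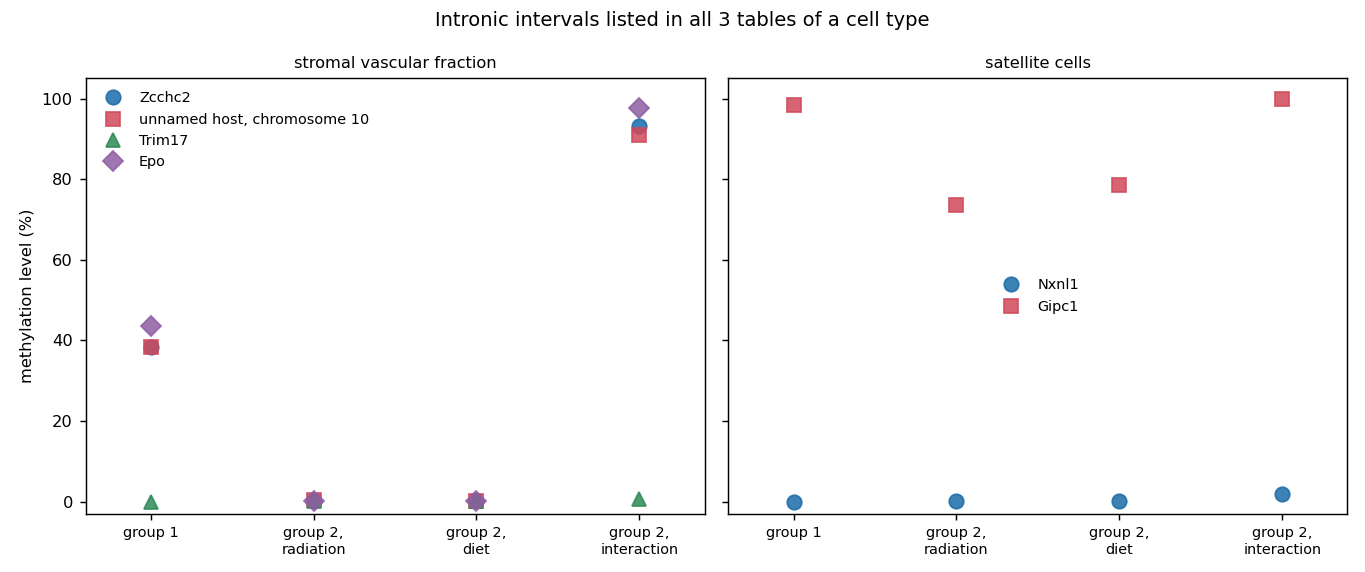
Methylation level (vertical axis, %) of each intronic interval listed in all 3 tables of a cell type. Levels are those of group 1 of the radiation table and of group 2 of the radiation, diet and interaction tables. Group 1 of the interaction table differed slightly at Zcchc2 (38.33% against 38.31%) and Trim17 (0.00317% against 0.00325%). In the stromal vascular fraction Zcchc2, Epo and an unnamed host on chromosome 10 sit between 38.3% and 43.6% in group 1, below 1% in group 2 of radiation and diet and above 90% in group 2 of the interaction, while Trim17 stays below 1%.

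Inside their host genes the intronic regions had no fixed place, and the annotation numbers introns from the low coordinate on either strand. Of the 1033 intervals, 967 had a host named through RefSeq, in 684 genes, and 20 of these lay outside the RefSeq span of their host. The other 66 are left unnamed, among them 12 that carried the identifier of a gene on another chromosome. Among genes with at least 4 introns, regions in intron 1 lay at a median of 28.6% of the gene's length from its start on the plus strand (n = 108) but at 89.1% on the minus strand (n = 25). For the last number the medians were 89.1% on the plus strand (n = 30) and 27.3% on the minus strand (n = 159). As written, 258 of 1033 intervals (25.0%) stood in intron 1. Counted from the start of the gene by strand, 364 of the 960 with a known strand (37.9%) stood in the first intron.

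**Figure D5:**
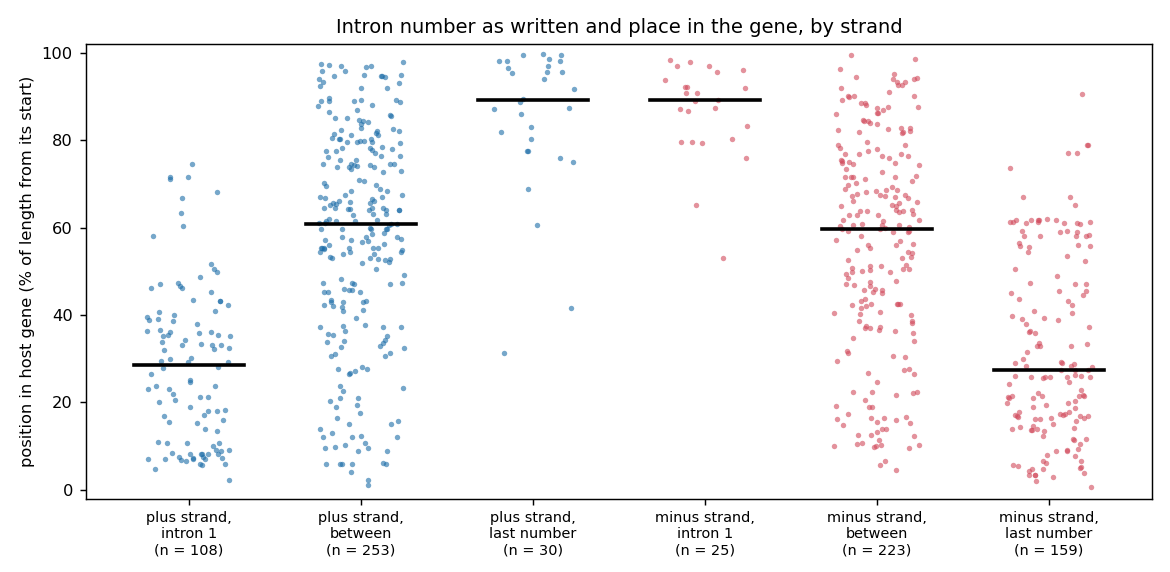
Position of intronic intervals along their host gene (vertical axis, % of the gene's length from its start), for genes with at least 4 introns, by strand and by the intron number as written. Black bars are medians, at 28.6% for intron 1 of plus-strand genes and 89.1% for intron 1 of minus-strand genes.

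Counted by interval, regions with 1 level under 1% were more often in first introns and near annotated starts than the others. By length they lay at a median of 52.4% of the way along their host, against 49.6% for the others. They stood in the first intron by strand in 136 of 252 intervals (54.0%), against 237 of 724 (32.7%) with both levels at least 1%. They were within 10 kb of an annotated start in 41.2%, against 26.6%, and were wider, with a median of 28 bases against 11. The 289 intervals of this set had 130 named host genes, and the 760 others had 597. Several intervals of 1 gene count separately here, and these shares were not recomputed with 1 interval per gene. The X chromosome held 34 of the 289 (11.8%), against 7 of the 760 (0.921%) with both levels at least 1%. Bcor held 21 of the 34 and Bcorl1 held 6, and without these genes 7 remained (2.42%), against 4 (0.526%). An interval listed in several tables can be in both sets. For 268 of the 1033 intervals (25.9%) the nearest start belonged to a gene other than the host.

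Bcor held more intronic regions than any other named gene in 3 of the 6 tables. It lies on the X chromosome. It had 8 in the diet table of the stromal vascular fraction and 5 in its radiation table, and 9 in the diet table and 8 in the radiation table of satellite cells. In the stromal vascular fraction radiation table Mideas had more, with 6. At chrX:12077449-12077549, Bcor was at 36.8% in group 1 and 0.231% in group 2 of the stromal vascular fraction diet table. The satellite cell diet table listed the same bases at 0.572% in group 1 and 30.7% in group 2. At chrX:12088504-12088512 group 1 was the higher one in both cell types, with 38.4% in group 1 and 0.094% in group 2 in the stromal vascular fraction and, at chrX:12088504-12088529, 30.7% in group 1 and 0.207% in group 2 in satellite cells.

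Some intronic regions were listed in both cell types, and the overlap of all listed regions was not counted beside them. In the stromal vascular fraction, 2 of 138 intronic and 186 of 5493 listed radiation regions had exactly the same interval in satellite cells. For diet these counts were 7 of 449 and 219 of 7997, and for the interaction 0 of 56 and 4 of 1207. For radiation, 13 of 138 regions of the stromal vascular fraction (9.42%) overlapped by at least 1 base 22 of 259 regions of satellite cells (8.49%), in 22 pairs. For diet it was 29 of 449 (6.46%) and 34 of 221 (15.4%), in 38 pairs, and for the interaction there were 0 pairs. Some of these pairs are 1 wide region over several short ones: 4 regions of the stromal vascular fraction gave 13 of the radiation pairs, and 4 gave 13 of the diet pairs. With a reciprocal overlap of 50% there were 6 radiation and 11 diet pairs. Group 1 was higher or lower in both cell types in 13 of the 22 radiation pairs and 22 of the 38 diet pairs. The labels and headers do not say whether group 1 stands for the same mice in both cell types. In 0 of the radiation pairs and 2 of the diet pairs were both levels at least 1% in both cell types.

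Nmnat2, an enzyme of NAD synthesis that protects axons, was 1 of these 2. Its region at chr1:153101216-153101250 was at 55.1% in group 1 and 27.5% in group 2 of the stromal vascular fraction, and at 85.6% in group 1 and 63.5% in group 2 of satellite cells. The other, chosen after its values were seen, was in Eya2, a developmental transcription cofactor. At chr2:165613898-165613899 it was at 30.8% in group 1 and 18.5% in group 2 of the stromal vascular fraction, and at 47.3% in group 1 and 57.6% in group 2 of satellite cells. At Zcchc2 the wide region of the stromal vascular fraction was higher in group 1, while the satellite cell pieces inside it at chr1:105993997-105994034 were higher in group 2 for diet.

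Gene lists of 20 pathways and cell types were set over the host genes. The lists were written with earlier results of these data known, and their counts are descriptions. As background, 649 of 21900 RefSeq protein-coding genes (2.96%) hosted an intronic region in any table. The shares of listed genes below are not adjusted for gene length. The sides within a list are to be read beside those of all intronic regions of a table, such as group 1 higher in 77.3% for diet in the stromal vascular fraction, or 84.6% with both levels at least 1%. Adipogenic genes held 18 regions in 10 of 32 genes, 11 of them in the diet table of the stromal vascular fraction, where group 1 was higher in 6. The Ebf3 regions above were 5 of these 11. Prdm16 was at 54.4% in group 1 and 38.8% in group 2 at a second site, and Ebf2 at 49.2% in group 1 and 32.3% in group 2. The others included Tle3, a corepressor of adipocyte formation, with 29.9% in group 1 and 4.01% in group 2, and Zfp423, a factor of preadipocyte commitment, with 65.8% in group 1 and 84.8% in group 2. Nuclear receptors held 8 regions in 5 of 37 genes. Rxra, the common partner of many of them, had 54.9% and 62.2% in group 1 and 26.0% and 31.3% in group 2 at 2 diet regions of the stromal vascular fraction. Ppard, a fatty acid sensor, had 51.4% in group 1 and 37.1% in group 2 there, and Ppara had 79.98% in group 1 and 67.5% in group 2 of the satellite cell radiation table.

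Genes of insulin and glucose handling held 10 regions in 6 of 37 genes. Foxo3, a transcription factor restrained by insulin, was at 69.9% in group 1 and 93.3% in group 2 of the stromal vascular fraction radiation table. Prkag2, a subunit of the energy sensor AMPK, was at 49.99% in group 1 and 29.8% in group 2 there. In its diet table Tbc1d1, a regulator of glucose transporter traffic, was at 28.9% in group 1 and 9.16% in group 2. Irs1 in satellite cells was listed at 2 neighbouring sites with opposite sides in the radiation table, with 0.678% in group 1 and 29.8% in group 2 at the one and 34.6% in group 1 and 0.0315% in group 2 at the other. Fatty acid genes held 7 regions in 5 of 30 genes, among them Acaca, which makes malonyl-CoA, with 33.9% in group 1 and 0.261% in group 2 of the satellite cell diet table.

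Myogenic genes held 7 regions in 3 of 31 genes. Pax7, the defining factor of satellite cells, had 3 regions in the satellite cell diet table, each higher in group 1, at 3.93%, 34.3% and 1.78% in group 1 and 0.111%, 0.162% and 0.0562% in group 2. All 3 were thus of the classes with 1 level under 1%. Over all intronic regions of that table group 1 was higher in 50.2%. Megf10, a receptor of satellite cells, was at 71.4% in group 1 and 95.7% in group 2 of the same table. Tcf4, an E protein that pairs with myogenic factors, had 2 diet regions in the stromal vascular fraction, at 87.7% and 32.2% in group 1 and 72.5% and 16.9% in group 2. Of 16 markers for satellite, endothelial, mesenchymal and macrophage cells, 2 held an intronic region, Pax7 in satellite cells and Pecam1 in the stromal vascular fraction, where it was at 26.7% in group 1 and 15.2% in group 2 for diet. These tables carry no expression, so the purity of the cells could not be checked with them.

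Histone modifiers held 48 regions in 10 of 60 genes, 31 of them in Bcor. Hdac7, Kdm4a and Smarca2 had diet regions in the stromal vascular fraction with group 1 higher by 25.0, 27.6 and 19.9 percentage points. Kdm6b, a demethylase of histone H3, was at 2.29% in group 1 and 26.6% in group 2 of its interaction table. Genes of the DNA methylation machinery held 2 regions in 1 of 24 genes, both in Mbd2, a reader of methylated DNA. Its sites were at 78.7% in group 1 and 90.7% in group 2 for diet in the stromal vascular fraction and at 82.4% in group 1 and 92.2% in group 2 for diet in satellite cells.

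Homeobox genes held 12 regions in 5 of 64 genes, 4 in the diet table of the stromal vascular fraction, and group 1 was higher in 4 of the 4, all with both levels at least 1%, where 84.6% of intronic regions had group 1 higher. Prrx2, a mesenchymal homeobox gene, had 2 of these, at 69.0% and 59.4% in group 1 and 36.2% and 31.7% in group 2. Wnt and Notch genes held 13 regions in 10 of 60 genes. Wnt9a, a ligand, was at 44.8% in group 1 and 65.5% in group 2, and Ror2, a receptor, at 33.4% in group 1 and 12.8% in group 2, both for diet in the stromal vascular fraction. Axon guidance and adhesion genes held 18 regions in 13 of 67 genes, with group 2 higher in 3 of 3 regions of either radiation table. Group 2 was higher in 70 of all 138 intronic regions of the stromal vascular fraction radiation table and in 163 of 259 of the satellite cell one. Matrix genes held 7 regions in 6 of 44 genes. Hspg2, the gene of perlecan, was at 32.7% in group 1 and 8.68% in group 2 of the stromal vascular fraction radiation table, and Lama5, a laminin chain, at 45.3% in group 1 and 62.6% in group 2 of the satellite cell one.

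Channel genes held 14 regions in 7 of 57 genes, and 8 of them were in Cacna1a, a neuronal calcium channel gene. Imprinted genes held 3 regions in 2 of 49 genes, with Trappc9, next to the imprinted Peg13, at 41.7% in group 1 and 63.7% in group 2 for diet in the stromal vascular fraction. The lists for transforming growth factor beta, endothelial, macrophage, fibroblast, clock and DNA damage genes each had at most 3 regions. Among them Smad3, a transducer of transforming growth factor beta, was at 76.3% in group 1 and 89.9% in group 2 for radiation in satellite cells, and Fanca, a DNA repair gene, at 95.1% in group 1 and 78.0% in group 2 for diet. Muscle contraction genes held 5 regions, all in Ldb3, a protein of the Z-disc, 1 of 41 genes of that list.

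Satellite cells were also profiled by RNA sequencing, with 6 samples of each of the 4 groups, and host genes were looked up in the authors' deposited RNA tables. The tables list only genes with an adjusted p under 0.1. Of 12371 tested genes, a number inferred from their p and adjusted p, 6.68% had an adjusted p under 0.05 for irradiation over both diets. Of the named hosts of intronic regions, 10 of 198 (5.05%) of the radiation table were among them, 8 of 165 (4.85%) of the diet table and 1 of 39 (2.56%) of the interaction table. These are shares of all named hosts, tested for RNA or not, since the untested ones cannot be told from the lists, and so cannot be set against the share of tested genes. For irradiation on chow, where 1.25% of tested genes passed, it was 1, 2 and 0 hosts. For irradiation on the high fat diet and for diet in irradiated mice it was 0 hosts, where the authors' deposited tables list 8 genes and 1 gene under the same threshold. All RNA values in the next paragraph are from the authors' deposited table over both diets, divided by 2 to give the mean effect of both diets, with positive values higher in irradiated cells.

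Nhsl1, a regulator of cell migration, had an RNA log2 fold change of 0.68 in the authors' deposited table (adjusted p = 0.00142 in that table), and its intronic region was at 1.04% in group 1 and 0.0404% in group 2 for radiation. Sfrp1, a secreted Wnt antagonist, had 0.85 (adjusted p = 0.0142 in the authors' deposited table), with 98.3% in group 1 and 76.6% in group 2 for radiation at chr8:23416933. Axin2, a Wnt target and inhibitor, had 1.05 (adjusted p = 0.0323 in the authors' deposited table), with 11.5% in group 1 and 18.7% in group 2. Prkcb, a protein kinase C gene, had 0.83 (adjusted p = 0.0222 in the authors' deposited table), with 51.4% in group 1 and 69.98% in group 2. Bcl6, a transcriptional repressor, had -0.44 (adjusted p = 0.00944 in the authors' deposited table), with 0.0777% in group 1 and 33.8% in group 2. Sides of the region and of the RNA were mixed, and since the methylation groups are not named they cannot be matched.

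Methylated DNA was also captured by a methyl-binding domain, in 6 satellite cell samples of each of the 4 groups. Its listed regions were promoters, CpG islands, CpG shores and exons, while intronic rows lie outside promoters and exons by annotation. Overlap with promoters and exons was thus limited in advance, and the overlap of all listed bisulfite regions was not counted. The authors' deposited tables of promoters and CpG islands shared 0 bases with an intronic interval of satellite cells, and so did the table of CpG shores. The table of gene exons overlapped 4 intervals through 2 of its regions. In Flrt2, an adhesion protein gene, 3 intervals of the radiation table had differences of -0.898, 6.69 and 1.11 percentage points. They lay inside an exon region with a fold change score of -0.34, of unstated scale, in the authors' deposited table. In Sox1ot, a long noncoding RNA gene, 1 interval was at 2.38% in group 1 and 6.69% in group 2 for diet. It lay inside an exon region with a score of 0.68 in the authors' deposited table. The sides of that comparison are not named.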

How the data were processed

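DNA of the stromal vascular fraction and of satellite cells was digested with MspI, bisulfite converted and sequenced, per the labels' protocols. The submitters' processing notes name Trim Galore 0.4.0, cutadapt 1.8.3, Bismark 0.14.4, Bowtie2 2.2.6 and CASAVA 1.8.2 and the mouse build mm10, to which all coordinates refer. The deposited bisulfite tables give, per the file headers, median p-values, a median methylation difference and the modelled level of group 1 and group 2 per region, as fractions between 0 and 1, which are printed here in percent. No source used here gives the model, filter or annotation behind them. The printed difference is the deposited median, which departed from the difference of the 2 levels by at most 6.75 percentage points. The deposited RNA tables hold log2 fold changes and adjusted p-values of the authors, and the deposited methyl-binding domain tables hold fold changes with p-values, of which that for exons is treated as a score since no scale is stated. None held columns of single samples (0 columns), so the depth is unknown, no SD can be given and no test was run.

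Intronic rows were selected by their annotation, counted and summarised with Python 3.11.15, pandas 2.3.3 and numpy 2.4.6, and overlaps of at least 1 base and level classes were tested on simulated data. Host names came from RefSeq through transcript identifiers, and promoter windows from RefSeq. The text names the 4 highest and 4 lowest differences of each table (3 and 3 for interactions), up to 4 regions per pair of tables and up to 4 per gene list. Genes with several regions, neighbouring regions, second sites of a named gene and further list genes were chosen after their values were seen, as were the classes of level. Members and lists were chosen with earlier results of these data known. Alternatives were a minimum difference of 10 percentage points, a p-value under 0.001, regions wider than 1 base, 1 region per gene, a reciprocal overlap of 50%, an RNA threshold of 0.1 and a distance of 1000 bases, with 2 more added after seeing the data.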

Additional observations from a re-analysis of the deposited data

How the results depend on the processing

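Of 130 recomputed values, 92 stayed within their counting interval or 1.5 times the count and 38 moved. The share with group 1 higher lay on the other side of 50% from its printed value in 4 of 5 alternatives for stromal vascular fraction radiation (50.6% to 64.9%) and in 3 of 5 for satellite cell diet (42.0% to 49.5%), and in 0 of 5 for each other table. No paired analysis was possible because the results come from no test and the tables hold no values of single samples. The overlap between tables of 1 cell type was not run under its alternative, since those tables largely share group 1.

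In the order stromal vascular fraction radiation, diet and interaction, then satellite cell radiation, diet and interaction, the intronic share was 4.39%, 7.55%, 8.85%, 3.1%, 2.65% and 5.76% at a difference of at least 10 percentage points. With both levels at least 1%, a choice made after seeing the data, it was 17.3%, 26.5%, 9.66%, 15.4%, 13.0% and 8.35%. With 1 region per gene it was 3.08% for stromal vascular fraction radiation, 3.53% for satellite cell radiation and 2.93% for satellite cell diet. For stromal vascular fraction diet it was 5.06% at a p-value under 0.001 and 4.94% in regions wider than 1 base, where the interaction had 3.15%.

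The share with group 1 higher was 64.9% and 83.3% for stromal vascular fraction radiation and diet at a difference of at least 10 percentage points. With both levels at least 1% it was 84.6% for stromal vascular fraction diet, 31.0% for satellite cell radiation and 42.0% for satellite cell diet. The median absolute difference for stromal vascular fraction radiation was then 14.8 percentage points. Counted by strand, also chosen after seeing the data, the first intron held 44.4%, 42.4%, 38.5%, 37.6% and 33.3% of regions in the stromal vascular fraction radiation and diet tables and the satellite cell radiation, diet and interaction tables.

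At a reciprocal overlap of 50% the cell types shared 6 radiation and 11 diet pairs. At an adjusted RNA p under 0.1, 25, 18 and 3 hosts (12.6%, 10.9% and 7.69%) passed over both diets, where 13.7% of tested genes did. On chow 6, 5 and 1 hosts (3.03%, 3.03% and 2.56%) passed, where 2.6% of tested genes did. These host shares include genes not tested for RNA, so they cannot be set against the shares of tested genes. Within 1000 bases 1 interval met a region of the table of CpG shores. The unknown depth and the lack of single-sample values limit every value above, and the cause of these moves was not tested.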
